A study of Homo sapiens with 4 samples.

Results

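The 4 ID genes and 6 genes of bone morphogenetic protein (BMP) signalling were read in human fibroblasts with and without induction of FOXA2. The 10 genes (ID1, ID2, ID3, ID4, BMP2, BMP4, GREM1, BMPR1A, BMPR2 and SMAD6) were taken by exact match of their symbol in a table of 63651 rows and 56620 symbols, and each symbol had 1 row. The cells were BJ-5ta, foreskin fibroblasts immortalised with telomerase, as a clonal derivative with a doxycycline-inducible FOXA2 gene, and both groups carried that gene and grew with hygromycin B, puromycin and bFGF. The induced group is 2 samples given 0.5 µg/ml doxycycline, and the uninduced group is 2 samples given none. The promoter of the transgene, the number of clones, the length of induction (the column name carries an unexplained "4D") and which cultures received the G1 blocker mimosine are not stated in the labels, and no doxycycline-treated cells without the transgene were analysed here. RNA was sequenced from whole cultures with a kit that does not keep strand.

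The table gives 1 value per gene and group in FPKM, a level corrected for transcript length and library size, and the authors' pair of confidence bounds is written below as an interval. No value per sample was available, so no SD, n or p-value is given, and whether an interval includes the difference between cultures is not stated. Here a gene rose or fell only where its induced and uninduced intervals did not overlap. Of the 14319 rows at 1 FPKM or more in either column, 104 rose, which is 0.726%, and 65 fell, which is 0.454%. A log2 difference is log2(FPKM + 1) of the induced column minus that of the uninduced column, and the added 1 shrinks the differences of weakly expressed genes.

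BMP ligands such as BMP2 and BMP4 are secreted and bind a receptor complex of type I chains, among them BMPR1A, and type II chains, among them BMPR2. The active receptor phosphorylates SMAD1, SMAD5 and SMAD9, which enter the nucleus with SMAD4 and switch on target genes. The ID genes are among the best known of these targets. ID proteins carry a helix-loop-helix but no DNA-binding basic region, so they pair with E proteins and keep them off DNA, and in fibroblasts they are known as serum-induced genes that favour proliferation. The pathway is held back outside the cell by antagonists such as GREM1, or gremlin 1, which binds BMP2 and BMP4, and inside the cell by SMAD6, an inhibitory SMAD that is itself a BMP target.

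GREM1 was the one member of the 10 that fell, and no ID gene rose or fell. GREM1 was at 51.6 FPKM in the induced column, against 246 FPKM in the uninduced column. ID1 and ID3 had lower values in the induced column and ID2 a higher one, all with overlapping intervals. Of the 9 members at 1 FPKM or more in either column, 1 fell and 0 rose, beside 0.454% and 0.726% of all rows at that level, and the median log2 difference of the 9 was -0.09, beside 0.05 over all 14319 rows. In RNA from whole cultures, fewer cells expressing a gene and less RNA per cell cannot be told apart.

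The promoters of the member that fell, of the 3 ID genes with the highest levels and of SMAD6 are printed below as examples of the sequence before the members' starts. Each is the 250 bases before a RefSeq start, read 5′ to 3′ on the gene's strand, from the RefSeq table of build GRCh38.p14, in which 9 of the 10 members were found with 12 starts in all. The windows are chr15:32717754-32718003 for the first of the 2 GREM1 starts, chr20:31605039-31605288 for ID1, chr2:8681806-8682055 for ID2 and chr15:66701986-66702235 for SMAD6, all on the plus strand, and chr1:23559502-23559751 on the minus strand for ID3. Capitals mark matches on either strand to 5 motifs: the forkhead core TGTTTA, the E box CANNTG, the GC-rich SMAD box GGCGCC, the palindromic SMAD box GTCTAGAC and the TATA-like TATAA.
GREM1: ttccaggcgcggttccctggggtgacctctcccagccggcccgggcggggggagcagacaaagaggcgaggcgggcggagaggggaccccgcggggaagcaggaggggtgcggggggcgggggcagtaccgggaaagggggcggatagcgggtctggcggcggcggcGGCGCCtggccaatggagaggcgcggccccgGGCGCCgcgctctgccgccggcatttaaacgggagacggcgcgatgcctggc
ID1: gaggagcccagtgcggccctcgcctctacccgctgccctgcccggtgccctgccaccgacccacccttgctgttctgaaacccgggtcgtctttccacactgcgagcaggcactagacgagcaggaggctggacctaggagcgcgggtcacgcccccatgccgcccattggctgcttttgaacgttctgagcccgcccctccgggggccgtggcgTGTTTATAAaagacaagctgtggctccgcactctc
ID2: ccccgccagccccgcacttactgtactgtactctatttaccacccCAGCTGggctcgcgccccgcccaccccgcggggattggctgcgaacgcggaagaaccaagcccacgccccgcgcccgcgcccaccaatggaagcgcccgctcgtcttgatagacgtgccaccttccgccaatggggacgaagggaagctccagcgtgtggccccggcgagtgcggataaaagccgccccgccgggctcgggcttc
ID3: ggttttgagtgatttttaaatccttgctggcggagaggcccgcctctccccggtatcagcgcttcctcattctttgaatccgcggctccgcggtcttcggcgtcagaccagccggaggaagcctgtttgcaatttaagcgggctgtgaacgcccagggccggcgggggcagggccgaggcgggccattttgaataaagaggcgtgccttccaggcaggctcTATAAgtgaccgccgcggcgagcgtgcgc
SMAD6: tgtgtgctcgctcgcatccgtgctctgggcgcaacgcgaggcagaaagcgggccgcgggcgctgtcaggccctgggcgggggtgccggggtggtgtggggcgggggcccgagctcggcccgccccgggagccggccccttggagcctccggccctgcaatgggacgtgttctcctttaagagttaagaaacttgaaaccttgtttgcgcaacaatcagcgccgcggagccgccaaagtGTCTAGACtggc

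SMAD6 held the palindromic SMAD box 12 bases before its start, and 0.182% of all 35116 RefSeq windows of 250 bases held that motif. GREM1 held the GC-rich SMAD box at 83 and 52 bases before its first start, a motif found in 16.4% of windows, and none of the 5 motifs before its second start. ID1 held the forkhead core, found in 11.0% of windows, 35 bases before its start, where it overlaps 2 TATA-like matches at 32 and 31 bases that themselves overlap on opposite strands. Among the 12 windows of the members, that of ID1 alone held the forkhead core. ID3 and ID4 each had a TATA-like match 29 bases before the start, and 18.9% of all windows held one. ID2 held an E box at 205 bases and ID4 one at 21 bases before the start, in common with 61.8% of windows. Of the 12 windows of the members, 5 held an E box, 5 a TATA-like match and 3 the GC-rich SMAD box, so these were not confined to the genes named here. These matches describe the letters in these windows only, and binding was not measured in these files.

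Of the 2 ligands among the members, BMP2 was weakly expressed. The value of BMP4 was above that of 42.8% of the kept rows in the induced column and 40.9% in the uninduced column. BMP4 was at 11.1 FPKM (interval 0 to 22.3) in the induced column, against 9.29 FPKM (0 to 21.6) in the uninduced column, a ratio of 1.19. BMP2 was below the level filter in both columns, at 0.450 FPKM (0 to 0.996) induced and 0.806 FPKM (0 to 1.75) uninduced. Both lower bounds of both genes were 0, so the intervals overlapped and set no limit on the ratio of the columns. In hg19 the span of BMP4 is chromosome 14, 54416454 to 54425479, and that of BMP2 chromosome 20, 6748311 to 6760927. The other BMP family ligands were lower still. Of 12 further ligands in the list, 0 reached 1 FPKM in either column, 5 were listed at 0 in both, and their summed level was 0.798 FPKM induced and 0.172 FPKM uninduced. BMP3 and GDF5 had the highest values among them, BMP3 at 0.310 FPKM induced and 0.0526 FPKM uninduced, and GDF5 at 0.264 FPKM induced and 0.0855 FPKM uninduced. BMP4 was thus the one ligand of the 14 examined that was above the filter.

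GREM1, the antagonist, had the highest level of the 10 genes in the uninduced column and the third highest in the induced one. Its value was 51.6 FPKM (interval 20.5 to 82.6) induced and 246 FPKM (99.4 to 392) uninduced. The ratio was 0.210, and taking the bounds at their extremes it could lie anywhere between 0.0522 and 0.831. The uninduced level was thus 4.77 times the induced one by the values and 1.20 times by the nearest bounds, and the gap between the intervals was 16.8 FPKM wide. The log2 difference was -2.23, lower than in all but 0.67% of the rows tested. By size it ranked 52nd among the 65 rows that fell.

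**Figure D1:**
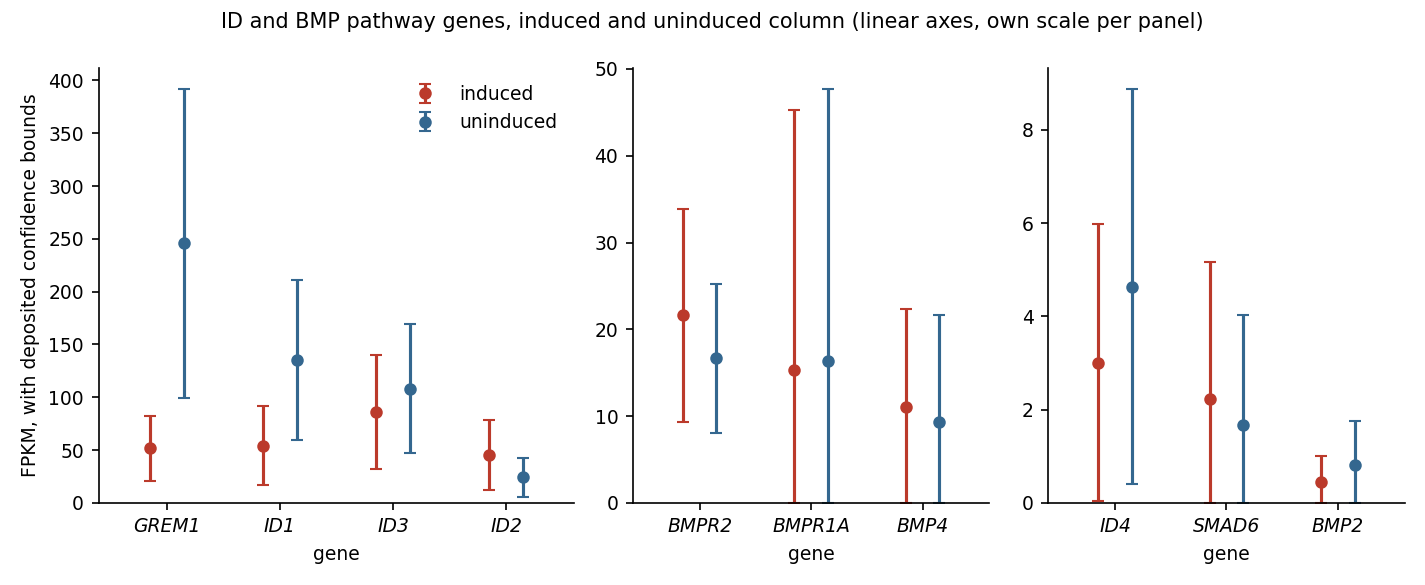
FPKM of the 10 genes on linear axes with a separate scale for each panel. Points are the deposited values, induced (red) left of uninduced (blue), and bars run from the lower to the upper deposited bound. GREM1, at 51.6 FPKM induced and 246 FPKM uninduced, is the one gene whose bars do not overlap.

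Abundant genes as a class had lower values in the induced column, and GREM1 lay near the low end of that class. Among the 681 other rows with a mean level within 1.5-fold of that of GREM1, the median log2 difference was -0.34, 7 fell (1.03%) and 12 rose, and 1.03% had a lower log2 difference than GREM1. The GREM1 span in the table (ENSG00000166923, hg19 chromosome 15, 33009471 to 33026870) is shared with the row RP11-758N13.1, which was at 0.760 FPKM induced and 3.41 FPKM uninduced. Reads of the 2 rows may not be fully separated, but the level of that row was small beside the level of GREM1 in both columns.

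The 3 rows nearest to GREM1 over the 2 columns were found by the Euclidean distance between log2(FPKM + 1) values. RRM2, a ribonucleotide reductase subunit, lay at a distance of 0.38, with 61.6 FPKM induced and 202 FPKM uninduced. UACA lay at 0.39, with 58.1 FPKM induced and 193 FPKM uninduced, and the intervals of RRM2 and of UACA overlapped. KPNA2, an importin alpha of nuclear transport whose symbol has 2 rows, lay at 0.44 and fell, with 52.7 FPKM (interval 22.4 to 83.0) induced and 181 FPKM (85.9 to 275) uninduced. Likeness over only 2 columns says no more than that level and difference are similar.

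The ratio of the antagonist to the ligand it binds was smaller in the induced column. GREM1 stood at 4.66 times the level of BMP4 in the induced column and at 26.5 times in the uninduced column, on the FPKM scale, which is per length. By the least favourable bounds the ratio could be as low as 0.917 induced and 4.60 uninduced, and the lower bound of 0 for BMP4 leaves both without an upper limit. The intervals of GREM1 and BMP4 overlapped in the induced column and lay apart in the uninduced one. Whether the ratio itself differed was not tested, since the table has no replicate values.

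The other extracellular antagonists had values in both directions and no calls. Of 16 further antagonists and modulators examined, 8 were at 1 FPKM or more in either column. Of these 8, 0 rose and 0 fell, beside 0.726% and 0.454% of all rows at that level, so the lack of calls says little. By value 3 were above and 5 below 0, and the median log2 difference was -0.21, beside 0.05 over all rows. The most abundant were FSTL1, a follistatin-related glycoprotein, at 318 FPKM (interval 33.7 to 602) induced and 435 FPKM (29.5 to 840.3) uninduced, and FST, or follistatin, which binds activins and some BMPs. FST was at 376 FPKM (107 to 645) induced and 80.2 FPKM (27.8 to 133) uninduced, a ratio of 4.69, and its intervals overlapped. By a looser rule, under which the difference of the FPKM values has to exceed its combined half-width, FST rose; 1.26% of all rows did so upward and 1.11% downward. NOG, or noggin, was at 0.140 FPKM (0 to 0.380) induced and 1.70 FPKM (0 to 3.48) uninduced, with overlapping intervals, and was named after its values had been seen. NOG passed the level filter only through the uninduced column, so its place among the 5 below 0 follows from the filter. GREM1 and FST were, of the antagonists examined, those with the largest differences in FPKM, and the values of one were lower and of the other higher after induction.

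The receptors among the members had overlapping intervals. BMPR2, the type II receptor, was at 21.6 FPKM (interval 9.33 to 33.9) induced and 16.6 FPKM (8.06 to 25.2) uninduced, a ratio of 1.30 that the bounds place between 0.370 and 4.2. BMPR1A, the type I receptor, was at 15.3 FPKM (0 to 45.3) induced and 16.3 FPKM (0 to 47.7) uninduced, a ratio of 0.936. The upper bound of BMPR1A lay 196% above its value in the induced column and 192% above it in the uninduced column, the widest relative intervals among the members. BMPR2 thus had bounds above 0 in both columns, whereas the lower bound of BMPR1A was 0 in both. For BMPR1A the bounds set no limit on the ratio, and the interval of the difference ran from -44.4 to 42.3 FPKM. In hg19 the span of BMPR2 is chromosome 2, 203241659 to 203432474, and that of BMPR1A chromosome 10, 88516407 to 88692595. Per length the ratio of BMPR2 to BMPR1A was 1.41 induced and 1.02 uninduced.

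Among the other receptors and co-receptors, RGMB fell. RGMB, a membrane-anchored BMP co-receptor of the repulsive guidance molecule family, was at 30.7 FPKM (interval 12.0 to 49.5) induced and 173 FPKM (57.3 to 289.7) uninduced, a ratio of 0.177 and a log2 difference of -2.46. The antisense row RGMB-AS1 overlaps it, at 1.27 FPKM induced and 15.7 FPKM uninduced, and without strand the reads of the pair cannot be fully told apart. Of the 11 genes in this list, 6 passed the level filter, with a median log2 difference of 0.24. Of these 6, 1 fell and 0 rose, beside 0.454% and 0.726% of all rows at that level. The median includes BAMBI, at 2.44 FPKM induced and 0.256 FPKM uninduced, with overlapping intervals. BAMBI passed the filter only through the induced column, which fixed the sign of its difference, and was named after its values had been seen. ENG, or endoglin, a co-receptor for several ligands of the TGF-beta superfamily, was at 65.6 FPKM (28.4 to 103) induced and 79.1 FPKM (35.4 to 123) uninduced. ACVR1, a type I receptor, was at 35.6 FPKM induced and 28.0 FPKM uninduced, with overlapping intervals, and BMPR1B was listed at 0 in both columns; both were named after their values had been seen.

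The SMAD level of the pathway had no calls. SMAD6 was at 2.23 FPKM (interval 0 to 5.18) induced and 1.67 FPKM (0 to 4.03) uninduced, close to the filter and with lower bounds of 0, and the sign of its difference flipped after quantile normalization. It spans chromosome 15, 66994566 to 67074338, in hg19. All 12 further SMADs and SMAD regulators passed the level filter. Of these 12, 0 rose and 0 fell, beside 0.726% and 0.454% of all rows at that level, so the lack of calls says little. By value 8 were above and 4 below 0, and the median log2 difference was 0.13, beside 0.05 over all rows. FKBP1A, which binds type I receptors and keeps them inactive, was at 159 FPKM (55.1 to 263) induced and 295 FPKM (123 to 467) uninduced. SMAD4, the common partner SMAD, was at 65.9 FPKM (4.64 to 127) induced and 55.7 FPKM (7.13 to 104) uninduced. Of the SMADs that BMP receptors phosphorylate, SMAD5 was at 24.1 FPKM induced and 25.1 FPKM uninduced, SMAD1 at 13.3 FPKM induced and 5.97 FPKM uninduced, and SMAD9 at 3.69 FPKM induced and 3.23 FPKM uninduced, each with overlapping intervals. SMAD1, SMAD5 and SMAD9 were named after their values had been seen.

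Among the ID genes, ID1 had the largest difference. ID1 was at 54.0 FPKM (interval 16.7 to 91.3) induced and 135 FPKM (59.7 to 211) uninduced, a ratio of 0.399 that the bounds place between 0.0792 and 1.53. The intervals overlapped over 31.6 FPKM, and the interval of the difference, -165 to 3.0 FPKM, just held 0. The log2 difference of -1.31 was lower than in all but 4.04% of the 1261 other rows within 1.5-fold of its level, whose median was -0.30. ID1 (ENSG00000125968) spans chromosome 20, 30193086 to 30194318, in hg19, and no other row shares that span.

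ID3, at a similar mean level, lay in the middle of rows like it. It was at 86.2 FPKM (interval 32.3 to 140.0) induced and 108 FPKM (46.9 to 169) uninduced, a ratio of 0.799 and a log2 difference of -0.32. The median of the 1220 other rows within 1.5-fold of its level was -0.30, and 48.4% of them had a lower difference. ID3 spans chromosome 1, 23884409 to 23886285, in hg19. In the uninduced column ID1 was at 1.25 times the level of ID3, with overlapping intervals. The bounds of the induced to uninduced ratio of ID3, 0.191 to 2.98, overlap those of ID1.

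ID2 had a higher value after induction. It was at 45.4 FPKM (interval 11.9 to 78.8) induced and 24.0 FPKM (5.85 to 42.2) uninduced, a ratio of 1.89 that the bounds place between 0.283 and 13.5. Of the 2972 other rows within 1.5-fold of its level, 93.5% had a lower log2 difference than its 0.89. The ID2 span (hg19 chromosome 2, 8806766 to 8824583) is shared with the row AC011747.7, at 1.21 FPKM induced and 0.321 FPKM uninduced. ID4 was the weakest of the family, at 3.01 FPKM (0.0379 to 5.98) induced and 4.64 FPKM (0.40 to 8.88) uninduced, with overlapping intervals. Its span in the table, hg19 chromosome 6, 19535175 to 19840915, covers 305741 bases with 7 other rows, none of them at 1 FPKM or more.

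The make-up of the ID family differed between the columns by value. ID1 made up 28.6% of the summed FPKM of the 4 genes in the induced column and 49.8% in the uninduced column, and ID2 24.1% induced and 8.84% uninduced. ID3 made up 45.7% induced and 39.7% uninduced, and ID4 1.60% induced and 1.71% uninduced. The sum of the 4 was 189 FPKM induced and 272 FPKM uninduced, and with each gene at its bounds the sum ranged from 61.0 to 316 FPKM induced and from 113 to 431 FPKM uninduced. The ratio of ID1 to ID2 was 1.19 induced, with extremes of 0.212 and 7.66, and 5.63 uninduced, with extremes of 1.42 and 36.0. ID1 and ID2 thus had overlapping intervals in the induced column and separate ones in the uninduced column, whereas the ranges of their ratio overlapped between the columns.

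**Figure D2:**
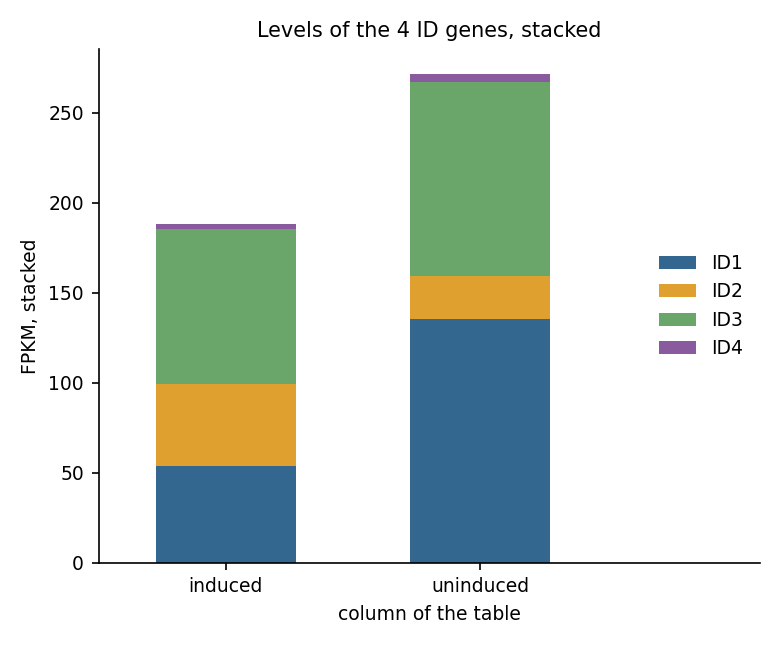
Stacked FPKM of ID1, ID2, ID3 and ID4 in the induced column (left) and the uninduced column (right), on a linear axis from 0 and without bounds. The total is 189 FPKM induced and 272 FPKM uninduced, and ID1 makes up 28.6% of it induced and 49.8% uninduced.

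By level, the order of the 10 genes in the induced column was ID3, ID1, GREM1, ID2, BMPR2, BMPR1A, BMP4, ID4, SMAD6 and BMP2. In this order no gene stood apart from the next by its interval, and 16 of the 45 pairs of genes had separate intervals. In the uninduced column the order was GREM1, ID1, ID3, ID2 and then the same 6 genes in the same order. There the step between ID3, with a lower bound of 46.9 FPKM, and ID2, with an upper bound of 42.2 FPKM, was the one between neighbours whose intervals did not overlap, and 24 of 45 pairs were separate. GREM1, ID1, ID3 and ID2 were thus the 4 most abundant members in both columns.

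**Figure D3:**
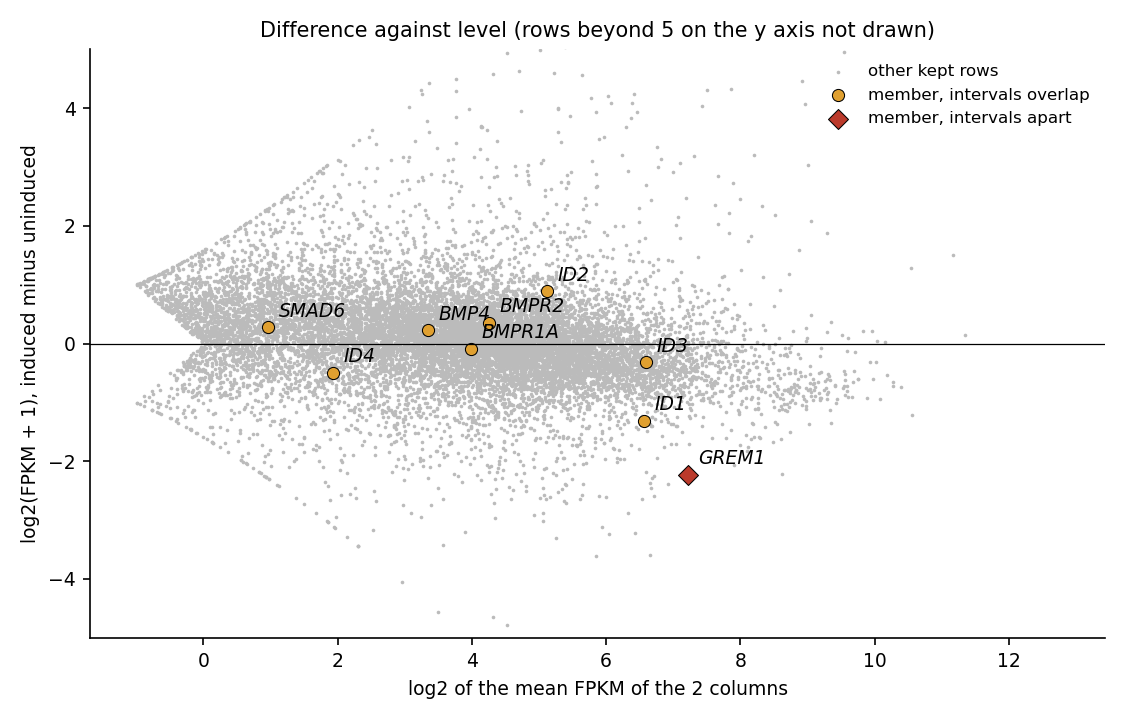
Log2 difference, induced minus uninduced, against the log2 of the mean FPKM of the 2 columns. Gray points are the other rows at 1 FPKM or more in either column (17 beyond 5 on the vertical axis are not drawn), circles are members with overlapping intervals and the diamond is GREM1, at -2.23; ID1 and ID3 lie at a similar level, at -1.31 and -0.32.

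Of 9 target genes of BMP signalling outside the ID family, 5 passed the level filter. Of these 5, 1 rose and 0 fell, beside 0.726% and 0.454% of all rows at that level. The 5 that passed the level filter all had higher values after induction, with a median log2 difference of 1.75, beside 0.05 over all rows, and with no filter the median of the 9 was 0.39. The gene that rose was HEY1, a helix-loop-helix repressor that also answers to Notch signalling, at 21.8 FPKM (interval 6.11 to 37.4) induced and 2.13 FPKM (0 to 4.60) uninduced, a log2 difference of 2.86. DLX2, a homeobox factor, was at 28.9 FPKM (10.7 to 47.1) induced and 7.58 FPKM (1.36 to 13.8) uninduced, and RUNX2, the bone master regulator, at 15.0 FPKM (4.39 to 25.7) induced and 11.2 FPKM (2.90 to 19.6) uninduced, both with overlapping intervals. ATOH8, a basic helix-loop-helix factor, was at 19.6 FPKM (5.50 to 33.8) induced and 5.14 FPKM (0.391 to 9.88) uninduced, and MSX1, a homeobox factor, at 6.97 FPKM (0.574 to 13.4) induced and 2.99 FPKM (0 to 6.03) uninduced. These 2 also had overlapping intervals, and were named after their values had been seen. MSX2, under the filter, was at 0.0856 FPKM induced and 0.190 FPKM uninduced, and HAMP, DLX3 and DLX5 were listed at 0 in both columns; these 4 are given to complete the list, outside the naming rule.

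The E proteins, with which ID proteins pair, had no calls, beside 0.726% of all rows that rose and 0.454% that fell. Among so few genes the lack of calls says little. TCF3 was at 72.8 FPKM (interval 21.9 to 124) induced and 76.3 FPKM (18.3 to 134) uninduced, TCF12 at 59.7 FPKM (16.3 to 103) induced and 63.1 FPKM (17.3 to 109) uninduced, and TCF4, named to complete the list, at 53.2 FPKM (14.0 to 92.3) induced and 35.1 FPKM (8.98 to 61.3) uninduced. Over all 63 pathway genes examined outside the 10 members, 34 passed the level filter, of which 1 rose (HEY1) and 1 fell (RGMB), beside 0.726% and 0.454% of all rows, and the median log2 difference was 0.15.

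**Figure D4:**
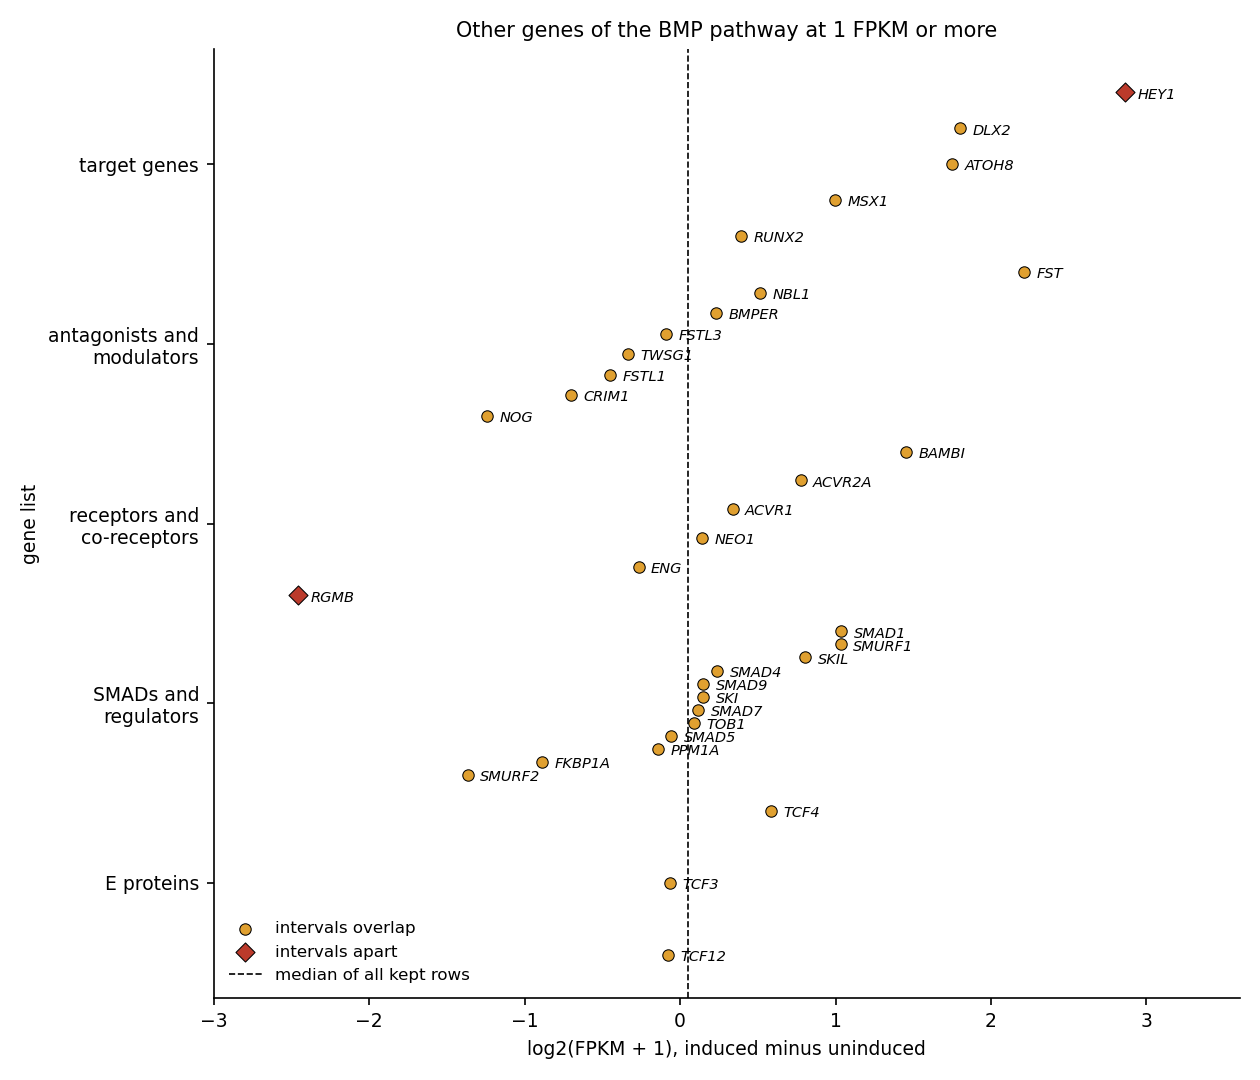
Log2 difference, induced minus uninduced, of the 34 further pathway genes at 1 FPKM or more in either column, grouped by role, with a dashed line at the median of all such rows, 0.05. HEY1, at 2.86, and RGMB, at -2.46, are the 2 genes whose intervals do not overlap (diamonds), and FST lies at 2.22 with overlapping intervals.

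The labels were checked by FOXA2 and by cell type markers. FOXA2 was at 104 FPKM (interval 50.2 to 158) induced and 4.82 FPKM (0.526 to 9.12) uninduced. All 10 fibroblast markers passed the level filter, with summed levels of 3044 FPKM induced and 4912 FPKM uninduced. Of these 10, 1 fell and 0 rose, beside 0.454% and 0.726% of all rows at that level. The marker that fell was the protease FAP, at 3.84 FPKM (interval 0 to 9.41) induced and 36.8 FPKM (14.3 to 59.4) uninduced. By value 3 of the 10 were above 0 and 7 below, and the log2 difference was 1 or more in 2 and -1 or less in 4. Among the 7, VIM, the most abundant, was at 905 FPKM induced and 2098 FPKM uninduced. THY1 was at 92.5 FPKM induced and 388 FPKM uninduced, and S100A4 at 231 FPKM induced and 492 FPKM uninduced. Among the 3, COL3A1 was at 445 FPKM induced and 125 FPKM uninduced, and DCN at 122 FPKM induced and 58.1 FPKM uninduced. LUM was at 181 FPKM induced and 143 FPKM uninduced. All of these but FAP had overlapping intervals. Endothelial cells, in which ID1 and SMAD6 are abundant, and keratinocytes had 0 of 6 markers each above the filter, with CDH5 and KDR, and KRT5 and KRT1, listed at 0 in both columns. The endothelial marker PECAM1, also at 0 in both, is listed on a patch sequence and not on a chromosome. Whether reads could be placed there is not stated. Smooth muscle markers passed in 4 of 6 cases, and all 6 summed to 12.2 FPKM induced and 25.3 FPKM uninduced. DES was at 0 in both, and ACTG2 at 2.89 FPKM induced and 1.19 FPKM uninduced. Leukocyte markers passed in 2 of 6 cases, and all 6 summed to 3.61 FPKM induced and 1.39 FPKM uninduced, with CD3E at 0 in both. The 2 that passed, CD14 and PTPRC, did so only through the induced column, which fixed the sign of their differences. Fibroblast and smooth muscle markers thus differed in both directions by value, and their part in the GREM1 and ID1 values was not tested.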

How the data were processed

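RNA-seq was analysed for 2 induced and 2 uninduced samples, whose values the table gives as 1 column per group. The submitters' processing notes name TopHat and the build hg19; the quantifier, versions and filters are unstated in those notes. The deposited unit is FPKM with lower and upper confidence bounds, per the file headers, and the level of the intervals and any pooling of samples are not stated. There are no counts, so depth is unknown; the FPKM sums were 482743 induced and 553536 uninduced. Another 3 value columns, whose name fits none of the 4 samples, were left unused. Columns were matched to groups by name. Span starts were raised by 1, because with starts counted from 0 the span lengths equal GENCODE gene lengths for 22132 of 52511 genes, against 326 otherwise; the build of that annotation differs, and a span can cover neighbouring genes.

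Rows at 1 FPKM or more in at least 1 column were kept (14319), the pseudocount was 1, and 3 kept rows with malformed bounds were never called. For a gene list, a symbol with several rows was taken by the row with the highest mean. The limma fit planned for values per sample could not be run. The members, lists, criterion and alternatives were chosen with earlier results of these data known. Genes were named by rule: all members, called pathway genes, the 2 most abundant kept genes of each list, FOXA2 and the 3 rows nearest to the called member; in a list with no kept gene the 2 highest are given, outside the rule. Others are marked in the text, or are markers and overlapping rows. One gene of the antagonist list as planned is not reported here and was left out of that list. Simulated columns, with planted changes larger than that of GREM1 in abundant genes, served to check the direction of the calls and the row choice. They do not show how often the criterion errs in these data. Python 3.11.15, pandas 2.3.3, NumPy 2.4.6 and matplotlib 3.10.9 were used.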

Additional observations from a re-analysis of the deposited data

How the results depend on the processing

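GREM1 and RGMB fell and HEY1 rose under both other scalings (equal FPKM sums and quantile normalization). The other 6 alternatives could not change these calls: the rule on the difference is looser, the pseudocounts (0.1 and 5) do not enter the bounds, the genes lie above both filters and each has 1 row. Over all 8 the log2 difference ranged from -2.25 to -2.04 for GREM1, from -2.49 to -2.27 for RGMB and from 1.91 to 3.29 for HEY1. Of the kept members with overlapping intervals none was called under either scaling or by the looser rule, and the sign of ID1 (-1.32 to -1.11), ID2, ID3, BMP4 and BMPR2, and of ID4 where it passed the filter, stayed the same. The sign of BMPR1A flipped to 0.10 with the columns scaled to the same FPKM sum, and that of SMAD6 to -0.04 after quantile normalization. Scaling to the same sum moved the median of all rows to 0.23, from 0.05. By the looser rule on the interval of the difference, 180 rows rose and 159 fell, 1 antagonist (FST) rose, and 2 target genes rose (HEY1 and DLX2). Quantile normalization also added FST, so that 1 antagonist rose. With no filter on low values the median of the target genes was 0.39, since 4 genes near 0 in both columns entered. The median of the E proteins, -0.07, was 0.13 with equal sums and 0.10 after quantile normalization. No paired analysis was possible because values per sample were not in the columns used, and leaving out a replicate was not run for the same reason. Of the 14319 rows, 7187 have a lower bound of 0 in the induced column and 7275 in the uninduced column, so overlap there says little about a change.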
